A study of Mus musculus with 6 samples.

Results

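The 6 genes used here as markers of Schwann cells and other glia, *Sox10*, *Mbp*, *Pmp22*, *S100b*, *Gfap* and *Ncam1*, were examined in lymphatic endothelial cells (LECs) sorted from the mouse dura mater. They were taken by gene symbol, each had 1 row among the 55401 genes of the tables, and all 6 were among the 17459 genes with enough counts to be tested. The study asked how dural LECs respond to an excess of VEGF-C, the growth factor that drives lymphatic vessel growth through the receptor VEGFR-3. Young wild-type (WT) C57BL/6J males received adeno-associated virus of serotype 9 (AAV) into the cisterna magna, the fluid space behind the brainstem. The vector encoded either full-length mouse VEGF-C (AAV-VEGF-C) or, in the control group (AAV-CTRL, AAV-Control in the labels), a soluble fragment of mouse VEGFR-3 that cannot bind VEGF-C. Each group had 3 libraries, numbered by the 3 repeats of the experiment, and each library came from LECs (CD31+, Podoplanin+, LYVE-1+, CD45-) of the pooled meninges of several mice, so single animals cannot be followed and the libraries measure the spread between experiments.

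Schwann cells wrap the axons of peripheral nerves, some with a myelin sheath and some without, and the dura is supplied by such nerves. The transcription factor SOX10 is needed to make and keep this lineage and the oligodendrocytes of the brain. MBP and PMP22 are structural proteins of myelin, S100B is a calcium-binding protein of Schwann cells and astrocytes, GFAP is the intermediate filament of astrocytes and of non-myelinating Schwann cells, and NCAM1 is a cell adhesion molecule of neurons, glia and some other cells. None of these genes is a marker of lymphatic endothelium, and *Pmp22*, *S100b* and *Ncam1* are also transcribed outside glia. In RNA from a pool of cells, fewer cells of one type and less RNA per cell cannot be told apart.

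The libraries of the groups differed in depth and in background before any member was considered. Total counts ran from 6530269 to 12399498 under AAV-CTRL and from 564475 to 3261935 under AAV-VEGF-C, with no overlap, so depth and treatment cannot be told apart. A set of 1616 genes from families with no known role in endothelium (receptors for odours, pheromones and bitter taste, defensins and keratin-associated proteins) received 134 to 258 CPM (counts relative to the library total) under AAV-CTRL and 2685 to 6552 CPM under AAV-VEGF-C. These silent families gave, per length, the counts that each member would be expected to have from background. With the quasi-likelihood test of edgeR and a Benjamini-Hochberg adjusted p under 0.05, the share of all tested genes called higher after AAV-VEGF-C was 10.5% and the share called lower was 0.659%. The LEC markers *Prox1*, *Lyve1* and *Pdpn* were detected in every library. Of the 9 lymphatic endothelial genes listed, 0 were called by edgeR, DESeq2 or limma on log2(TPM + 1). At an unadjusted p under 0.05, 0 were lower in edgeR, 1 in DESeq2 and 4 in limma, and 0 were higher in any of them.

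In TPM, an abundance per transcript length, the mean levels of the members spanned a wide range in both groups. *Pmp22* was the most abundant, at 51.4 ± 16.7 TPM under AAV-CTRL and 19.6 ± 13.3 under AAV-VEGF-C (SD, n = 3 each), above 94.5% and 93.9% of tested genes. *S100b* followed at 26.4 ± 9.37 and 6.05 ± 2.88 TPM, and *Ncam1* at 13.4 ± 7.98 and 4.32 ± 1.09 TPM. *Mbp* was at 4.56 ± 3.82 and 2.51 ± 2.49 TPM, *Gfap* at 2.07 ± 1.49 and 2.26 ± 2.22 TPM, and *Sox10* at 0.672 ± 0.609 and 2.66 ± 0.891 TPM. *Sox10* was thus the lowest member in AAV-CTRL, above 17.4% of tested genes, and the fourth of the 6 in AAV-VEGF-C, above 51.8%. Between every pair of neighbours in either order the ranges over libraries overlapped. *Pmp22* was nonetheless above *S100b* in all 6 libraries, and the order of *Sox10*, *Mbp* and *Gfap* in AAV-VEGF-C was not the same in all 3 libraries. The summed TPM of the 6 genes was 73.2, 95.3 and 127 in AAV-CTRL 1, 2 and 3 and 14.1, 46.5 and 51.5 in AAV-VEGF-C 1, 2 and 3.

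**Figure D1:**
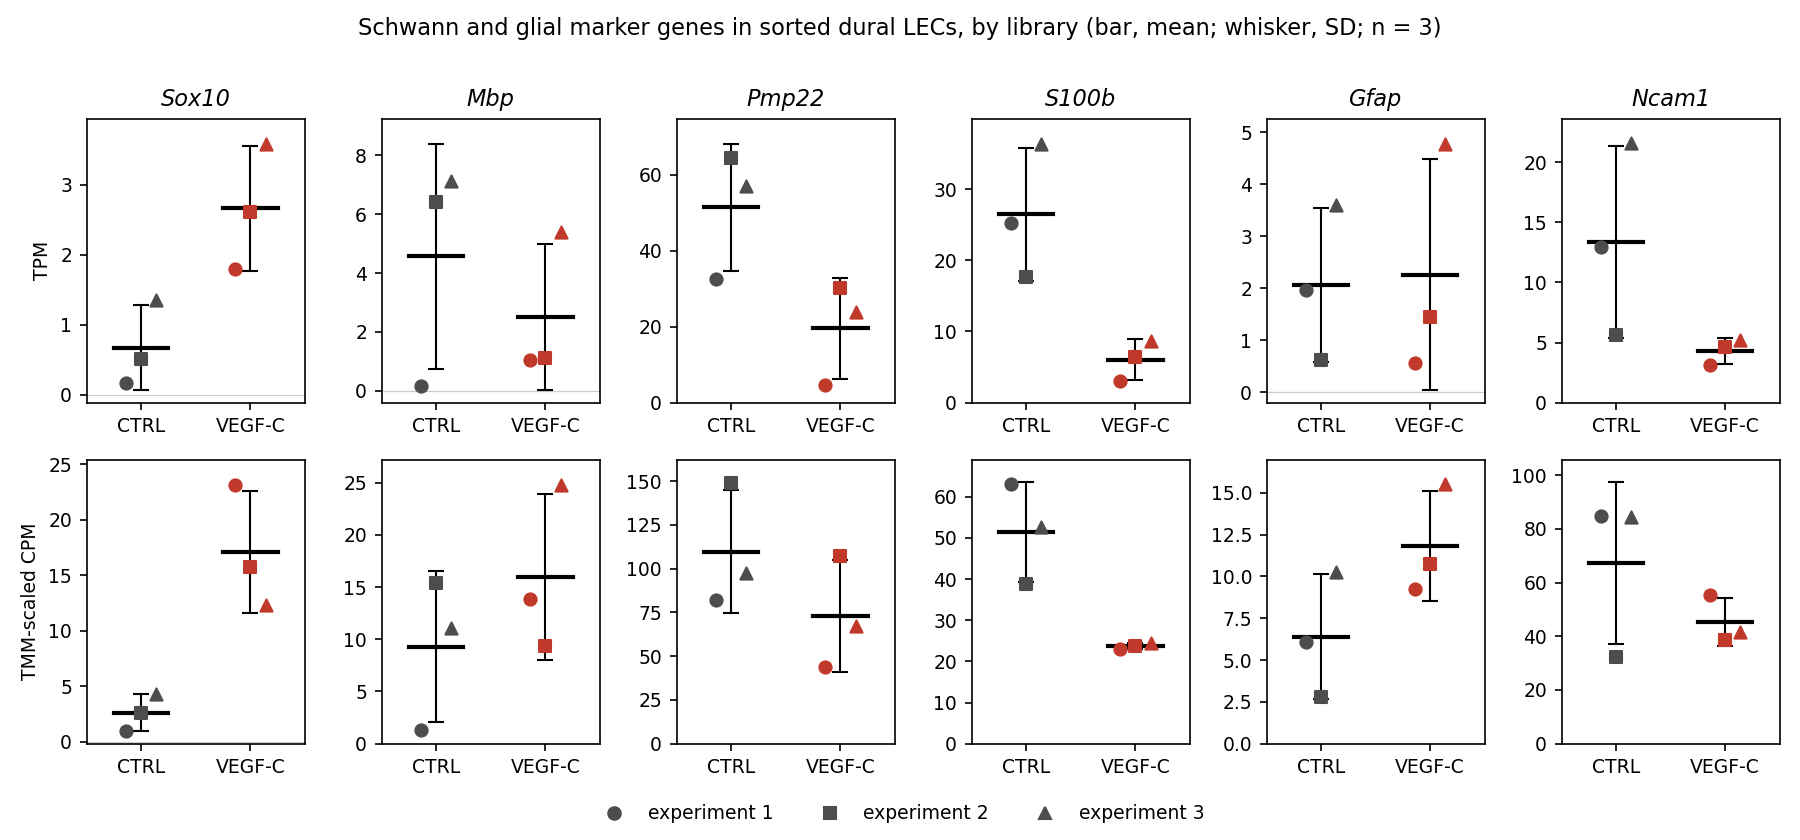
Levels of the 6 members by library, in TPM (upper row) and in CPM scaled by TMM factors (lower row), with a symbol for each experiment, the mean as a bar and the SD as a whisker (n = 3 in each group, every axis linear and including 0). In both units Sox10 was above all AAV-CTRL libraries in each AAV-VEGF-C library and S100b was lower in both, whereas Pmp22 and Ncam1 were separated in TPM alone.

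*Sox10* (ENSMUSG00000033006.10, minus strand of chromosome 15 at 79154908 to 79165240 of GRCm38) was the member that rose. Its counts were 6, 20 and 64 in AAV-CTRL 1, 2 and 3 and 10, 22 and 43 in the much shallower AAV-VEGF-C 1, 2 and 3. These are 0.162, 0.507 and 1.35 TPM under AAV-CTRL and 1.80, 2.61 and 3.58 TPM under AAV-VEGF-C. All 3 AAV-VEGF-C libraries lay above all 3 AAV-CTRL libraries, with a ratio of mean TPM of 3.96 (two-sided exact permutation p = 0.1, which is the minimum for 2 groups of 3). Such a separation towards AAV-VEGF-C held for 12.8% of all genes in TPM and for 22.3% in TMM-scaled CPM. The log2 fold change in edgeR was 2.60 (SE 0.601, adjusted p 0.0328), in a range of levels, a mean TPM from 1 to 5, where 6.19% of genes were called higher. *Sox10* was at 0.919 CPM in AAV-CTRL 1, and the count filter asked for 2.04 CPM in 3 libraries. It therefore entered the test only with the help of AAV-VEGF-C libraries.

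The differences of *Sox10* within experiments 1, 2 and 3 were 4.58, 2.63 and 1.51 on the log2 scale of TMM-scaled CPM. The groups did not overlap in this unit, so any pairing of libraries gives values above 0 and the signs add no support. The nearest libraries of the groups, AAV-CTRL 3 at 5.16 CPM (95% Wilson interval 4.04 to 6.59) and AAV-VEGF-C 3 at 13.2 CPM (9.79 to 17.8), did not overlap in intervals, which cover counting error only. Background predicted 1.12, 0.820 and 1.10 of its counts under AAV-CTRL and 2.45, 3.31 and 5.81 under AAV-VEGF-C, or 3.37% and 15.4% of all *Sox10* counts of the groups. With this background subtracted the log2 fold change was 2.72 and the adjusted p 0.131 (edgeR). Leaving out any library other than AAV-CTRL 1 also took the adjusted p above 0.05, up to 0.0960, with log2 fold changes from 2.29 to 3.07. Over all genes, 13 were called higher after subtraction, against 1835. The number was 0 without AAV-CTRL 2 or 3, and 1233, 8 and 320 without AAV-VEGF-C 1, 2 and 3.

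Of the myelin proteins, neither passed the test. *Mbp* (ENSMUSG00000041607.17, plus strand of chromosome 18 at 82475146 to 82585637) had 8, 121 and 164 counts under AAV-CTRL and 6, 13 and 86 under AAV-VEGF-C. In TPM it was at 0.168, 6.40 and 7.12 under AAV-CTRL and at 1.03, 1.10 and 5.39 under AAV-VEGF-C, so that AAV-CTRL 1 was the lowest library and the groups overlapped. The log2 fold change was 0.83 (SE 0.793, edgeR adjusted p 0.540), and it was below 0 with limma on log2(TPM + 1), at -0.45. The difference within experiments was 3.43, -0.72 and 1.16 on the log2 scale. The 7 leukocyte genes counted here summed to 21.4 TPM in AAV-CTRL 1 against 1444 and 935 in AAV-CTRL 2 and 3. The listed genes of myelin and myelinating Schwann cells summed to 24.2 against 109 and 81.7. Of these sums, *Egr2*, which immune cells also make, gave 17.3, 92.6 and 56.7 TPM in AAV-CTRL 1, 2 and 3. The listed genes of immature, non-myelinating and repair Schwann cells summed to 33.9 against 21.3 and 51.1. The part of cell composition in the *Mbp* values was not tested.

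*Pmp22* (ENSMUSG00000018217.12, plus strand of chromosome 11 at 63128982 to 63159547), whose dosage is altered in inherited neuropathies, had 513, 1173 and 1441 counts under AAV-CTRL and 19, 150 and 234 under AAV-VEGF-C. It was at 32.7, 64.5 and 57.1 TPM under AAV-CTRL and at 4.63, 30.3 and 23.8 TPM under AAV-VEGF-C. Every AAV-VEGF-C library was below every AAV-CTRL library in TPM (exact permutation p = 0.1), as were 36.4% of all genes. In TMM-scaled CPM the groups overlapped, at 82.4, 149 and 97.6 under AAV-CTRL and 43.9, 108 and 67.3 under AAV-VEGF-C. The log2 fold change was -0.57 (SE 0.394, edgeR adjusted p 0.384), and the differences within experiments were -0.91, -0.47 and -0.54. Background accounted for 0.0510% of its counts under AAV-CTRL and 1.51% under AAV-VEGF-C, the least of the 6 members.

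*S100b* (ENSMUSG00000033208.7, plus strand of chromosome 10 at 76253853 to 76261159) was the member that fell. It had 393, 305 and 777 counts under AAV-CTRL and 10, 33 and 85 under AAV-VEGF-C. In TMM-scaled CPM it was at 63.1, 38.8 and 52.6 under AAV-CTRL and at 23.1, 23.7 and 24.4 under AAV-VEGF-C, where the 3 libraries were nearly equal. The groups overlapped neither in this unit, as for 17.6% of all genes towards lower values, nor in TPM, at 25.3, 17.7 and 36.3 against 2.99, 6.46 and 8.70 (exact permutation p = 0.1 in both units). The log2 fold change was -1.11 (SE 0.290, edgeR adjusted p 0.0479), where 1.45% of genes with a mean TPM of 5 or more were called lower. The differences within experiments were -1.45, -0.71 and -1.11.

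The call for *S100b* lay close to the threshold. Its adjusted p was above 0.05 without any 1 of the 6 libraries, from 0.0635 to 0.110, and reached 0.466 when all libraries were drawn down to the smallest total (log2 fold change -0.85). Over all genes, 0 to 48 were called lower without 1 library and 0 after drawing down, against 115. Background predicted 12.5%, 5.10% and 3.50% of the *S100b* counts in AAV-VEGF-C 1, 2 and 3 and 0.1% in each AAV-CTRL library. Of 7 genes of fibroblasts, a cell type of the dura that the gate should exclude, *Dcn* (decorin, a matrix proteoglycan) fell by 1.69 on the log2 scale (edgeR adjusted p 0.0287). The other 6 were not called by edgeR, which had 4 of the 7 lower at an unadjusted p under 0.05. DESeq2 called *Dcn*, *Lum*, *Mgp* and *Pdgfra* lower, and limma on log2(TPM + 1) called *Dcn* and *Lum* lower. All 7 log2 fold changes in edgeR were below 0, from -1.69 to -0.65. None of the 7 was at 0 in any library. Their summed TPM ran from 1733 to 4097 under AAV-CTRL and from 394 to 1318 under AAV-VEGF-C, and that of 9 lymphatic endothelial genes from 484 to 591 and from 156 to 346, on a scale where the groups separated towards lower values in 36.4% of all genes. The part of these cells in the *S100b* values was not tested.

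*Sox10*, which encodes a DNA-binding protein, and *S100b*, a gene of the same lineage, were called in opposite directions. The sequence before the *S100b* start was therefore searched for ACAAAG and ACAATG, core letters of SOX sites, and is shown here. It is the RefSeq window of GRCm38.p6 at chr10:76253586-76253835 on the plus strand, the 250 bases before the start, in lower case since no searched motif was found to mark in capitals.
S100b: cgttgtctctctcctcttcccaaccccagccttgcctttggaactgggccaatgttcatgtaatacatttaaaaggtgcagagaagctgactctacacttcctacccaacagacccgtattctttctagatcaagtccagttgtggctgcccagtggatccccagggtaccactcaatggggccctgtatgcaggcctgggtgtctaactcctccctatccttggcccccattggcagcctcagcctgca
The letters ACAAAG and ACAATG of SOX sites and the TATA box TATAAA were searched on both strands, each counted by itself. The 300-base windows (250 before the start and 50 after) were those RefSeq gave for *S100b*, *Gfap* and *Pmp22*, 3 of the 6 members. The searched letters were in none of the 6 windows of these genes, 4 of which belong to *Pmp22*. Over all 32851 windows of the table, 18.7% held ACAAAG, 12.6% held ACAATG and 13.6% held TATAAA. Other forms of SOX sites were not searched, and such a form, TCAATG, is in the *S100b* and *Gfap* windows. The absence of the searched letters says nothing about other forms or about sites elsewhere.

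*Gfap* (ENSMUSG00000020932.14, minus strand of chromosome 11 at 102887336 to 102900912) came closest to the floor of 3 counts. It had 38, 22 and 152 counts under AAV-CTRL and 4, 15 and 54 under AAV-VEGF-C, or 1.97, 0.630 and 3.60 TPM against 0.559, 1.45 and 4.77 TPM. The groups overlapped, with the lowest and the highest library both in AAV-VEGF-C. The log2 fold change was 0.93 (SE 0.543, edgeR adjusted p 0.304), with 0.60, 1.94 and 0.59 within experiments, and it was -0.0047 with limma on log2(TPM + 1). Background predicted 59.9% of the *Gfap* counts of AAV-VEGF-C 1, 21.5% of those of AAV-VEGF-C 2 and 10.5% of those of AAV-VEGF-C 3, against 0.700% to 3.60% in AAV-CTRL.

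*Ncam1* (ENSMUSG00000039542.16, minus strand of chromosome 9 at 49502136 to 49798925) had 529, 254 and 1247 counts under AAV-CTRL and 24.2, 53.6 and 145 estimated counts under AAV-VEGF-C. The spans of *Rpl21-ps8*, *Dip2a* and *Gm26668* meet those of *Mbp*, *S100b* and *Gfap* on the other strand without sharing an exon. For *Ncam1*, an exon of the antisense gene *Gm11149* overlaps it on the other strand, and since the use of strand in counting is not given in the sources used here, its counts are uncertain. It was at 12.9, 5.63 and 21.6 TPM under AAV-CTRL and at 3.10, 4.63 and 5.23 TPM under AAV-VEGF-C, with no overlap (exact permutation p = 0.1). In TMM-scaled CPM AAV-CTRL 2 was the lowest of all 6 libraries, at 32.3 against 84.9 and 84.4 in AAV-CTRL 1 and 3 and 55.5, 38.7 and 41.7 in AAV-VEGF-C. The log2 fold change was -0.59 (SE 0.414, edgeR adjusted p 0.394), the differences within experiments were -0.62, 0.26 and -1.02, and after drawing down the value was 0.081.

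**Figure D2:**
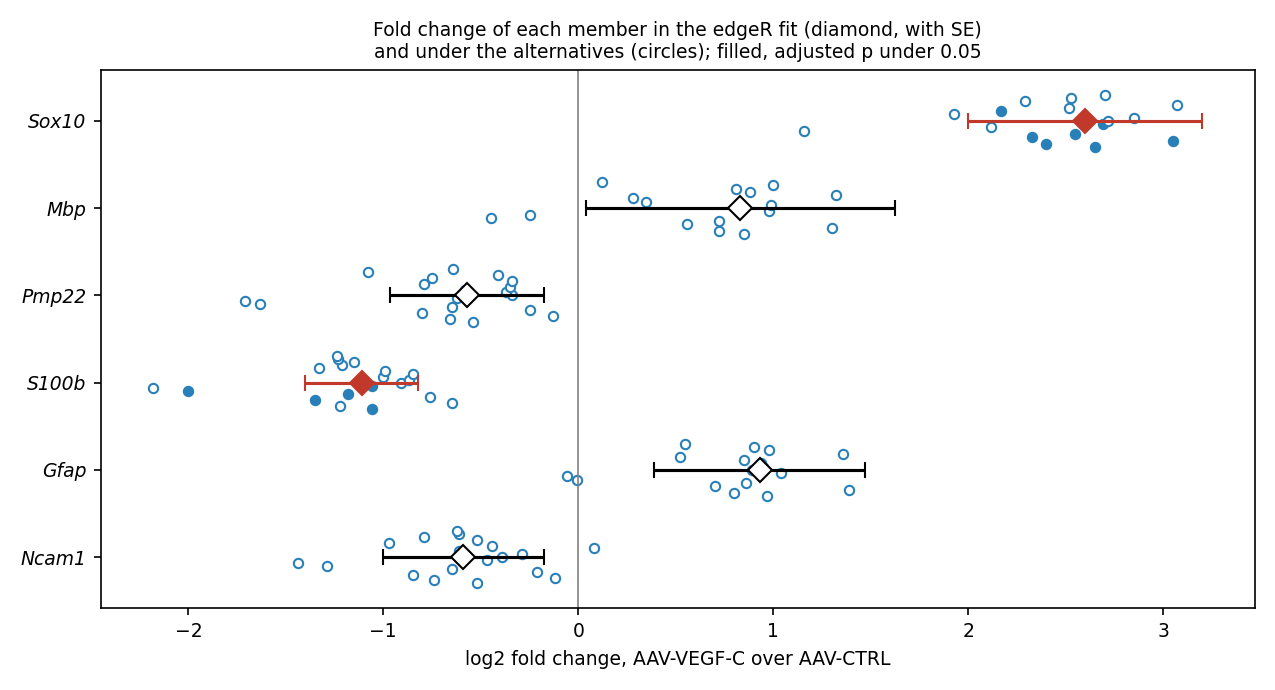
Log2 fold change of AAV-VEGF-C over AAV-CTRL for each member (x axis), from edgeR with its SE (diamond) and under each alternative scaling, filter, test, subtraction or left-out library (circles, spread vertically for legibility), filled where the adjusted p was under 0.05. Sox10 lay between 1.16 and 3.07 and S100b between -2.18 and -0.65 under every setting that tested them, filled in some and open in others, while Mbp, Gfap and Ncam1 crossed 0.

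Thus 1 member was called higher, 1 was called lower and 4 were not called, where 10.5% of all genes tested were called higher and 0.659% lower. The median log2 fold change was 0.13 over the 6 members against -0.0037 over all genes tested. The 3 members with a mean TPM of 5 or more all had log2 fold changes below 0 and the 3 below that level all had values above 0. The median of all genes ran the same way, at -0.41 for the 7234 genes with a mean TPM of 5 or more and 0.12 for the 6821 genes from 1 to 5. In the AAV-VEGF-C libraries the low members lay nearest to background: *Sox10*, *Mbp* and *Gfap* had 1.67 to 16.5 times their expected background counts there, and *Ncam1*, *S100b* and *Pmp22* had 7.43 to 86.4 times.

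**Figure D3:**
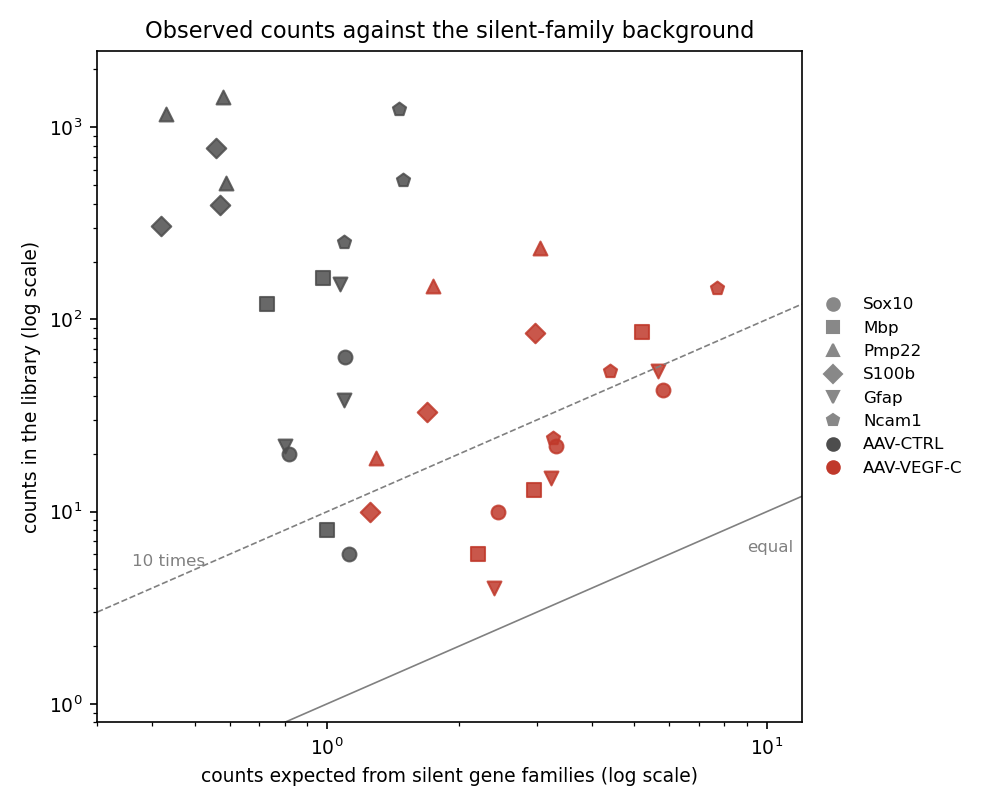
Counts of each member in each library (y axis, log scale) against the counts expected from silent gene families of the same length (x axis, log scale), with AAV-CTRL in grey and AAV-VEGF-C in red, the solid line at equal counts and the dashed line at 10 times the expectation. No point lies on or below the line of equality, and the lowest, Gfap in AAV-VEGF-C 1, is at 1.67 times its expectation.

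The genes whose TMM-scaled CPM, as log2(value + 1), ran most like each member over the 6 libraries were then found among the 6252 or 6253 genes compared, those with a mean TPM of 5 or more, without histone, small RNA, mitochondrial, ribosomal and predicted genes (removed by symbol). For *Sox10* they were *Inpp5f* (Pearson r 0.990), *Sp110* (0.962) and *Acrbp* (0.927). For *S100b* they were *Kifap3*, *Cped1* and *Mxd4* (0.997 to 0.994). For *Pmp22*, *Ifrd1* and *Glyr1* were among them (0.996 for both), and for *Ncam1* they were *Zfp462*, *Smad6* and *Nog* (0.984 to 0.967). For *Mbp* they were *Zfp746*, *Mcm7* and *Myh11* (0.926 to 0.892), and for *Gfap* they were *BC004004*, *Timeless* and *Camta1* (0.95 to 0.863). These values describe 6 libraries whose depth and background differ between the groups.

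To set the members beside the rest of their lineages, 85 other genes of 6 lists were counted in the same fit, of which 65 were tested. Of these, 14 (21.5%) were called higher and 0 were called lower (edgeR, 4 lower at an unadjusted p under 0.05, and 2 called lower by DESeq2, *S100a10* and *Vim*). All 14 had a mean TPM no higher than 2.58, and 9 of them were under 1 TPM, where 9 of 17 listed genes and 37.9% of all genes were called higher. Of the 14, 9 were below the minimum of the count filter, 2.04 CPM, in every AAV-CTRL library and so entered the test through AAV-VEGF-C alone. The filter asked for this level in 3 libraries. *Nefm*, *Nefh*, *Tubb3* and *Stmn2* were below it in AAV-CTRL 1, so they also passed only with the help of AAV-VEGF-C libraries. Of all 2081 genes that entered through AAV-VEGF-C alone 72.5% were called higher, so the counts of higher genes in the lists below are no evidence about the lists. Background predicted 9.73% to 71.6% of their counts in AAV-VEGF-C, with a median of 29.8%. The 18 listed genes with a mean TPM of 5 or more all had log2 fold changes below 0, with a median of -0.70, and 0 of them were called by edgeR (4 lower at an unadjusted p under 0.05). Of these 18, *S100a10* and *S100a11* were called lower with the replicate block, *S100a10* and *Vim* by DESeq2, and *Cldn11*, *S100a10* and *S100a11* by limma on log2(TPM + 1). With 1 of AAV-CTRL 2, AAV-CTRL 3, AAV-VEGF-C 2 or AAV-VEGF-C 3 left out, 0 of the listed genes were called higher, with 14 to 23 at an unadjusted p under 0.05 (edgeR), while 8 were without AAV-CTRL 1 and 7 without AAV-VEGF-C 1.

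Of the 15 genes of myelin and myelinating Schwann cells, 11 were tested, 2 rose and 0 fell. *Drp2*, a dystrophin-related protein of the periaxin complex, had 68, 38 and 84 counts under AAV-CTRL and 48, 50 and 80 under AAV-VEGF-C (log2 fold change 2.91, edgeR adjusted p 0.0304). *Ncmap*, a non-compact myelin protein, had 0, 3 and 6 counts under AAV-CTRL and 2, 6 and 10 under AAV-VEGF-C (3.60, adjusted p 0.0380). The most abundant were *Egr2*, the transcription factor that switches on myelination and is also made by immune cells, at 55.5 and 26.5 mean TPM under AAV-CTRL and AAV-VEGF-C (-0.37, adjusted p 0.728), and *Cnp*, a myelin enzyme, at 5.18 and 3.41 (0.14, adjusted p 0.905). Exons of other genes overlap those of *Cnp*, *Foxd3*, *Matn2*, *Mobp*, *Nkx2-2*, *Nefm*, *Csf1r*, *Pdgfra* and *Prox1*, which leaves their counts uncertain.

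Among the 13 genes of immature, non-myelinating and repair Schwann cells, 9 were tested, 1 rose and 0 fell. The gene that rose was *Foxd3*, a neural crest transcription factor, with 8, 9 and 13 counts under AAV-CTRL and 4.24, 7 and 33.4 estimated counts under AAV-VEGF-C (log2 fold change 2.82, edgeR adjusted p 0.0235). *Matn2*, a matrix protein, was the most abundant at 17.1 and 5.53 mean TPM (-0.77, adjusted p 0.196). *Fabp7*, a fatty acid binding protein of immature glia, had 165 counts in AAV-CTRL 3 and 0 to 19 in the other libraries. *Erbb3*, which works with SOX10 in this lineage, was at 0.607 ± 0.550 and 0.474 ± 0.300 TPM.

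Among genes of the central nervous system, 0 of the 11 of astrocytes were called in either direction by edgeR, DESeq2 or limma (1, 2 and 4 lower at an unadjusted p under 0.05), and with no count filter *Sox9* was called lower (-1.20, edgeR adjusted p 0.038). Their most abundant members were the connexins *Gja1*, at 103 and 31.7 mean TPM (-0.67, adjusted p 0.214), and *Gjb6*, at 26.5 and 10.5, which are also made by meningeal cells. Of 13 oligodendrocyte genes 7 were tested and 5 rose, and all 5 entered the test through AAV-VEGF-C alone. *Nkx2-2*, a transcription factor of oligodendrocyte progenitors, had 0 counts in every AAV-CTRL library and 2, 8 and 15 in AAV-VEGF-C 1, 2 and 3. With AAV-CTRL alone set to a floor of 3 counts per library, it was 13.8-fold higher in TMM-scaled CPM. Background predicted 84.6%, 28.5% and 26.7% of its counts in AAV-VEGF-C 1, 2 and 3, so this ratio is not a lower bound. *Mog*, a protein of the myelin surface, had 0, 1 and 0 counts against 4, 3 and 7, and *Mobp* had 0, 4 and 5 against 9, 15 and 31. *Myrf*, a myelin regulatory factor, had 9, 10 and 7 against 3, 14 and 34. The abundant genes of the list were *Cldn11*, a tight junction protein that meningeal cells also make, at 21.5 and 5.41 mean TPM (-0.94, edgeR adjusted p 0.278), and *Enpp6* at 6.25 and 3.27 (-1.04, adjusted p 0.626).

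Of 14 genes of neurons and axons 9 were tested and 5 rose, of which 1, *Rbfox3*, entered the test through AAV-VEGF-C alone. This neuronal splicing factor had 6, 2 and 2 counts under AAV-CTRL and 11, 10 and 43 under AAV-VEGF-C (log2 fold change 5.05, edgeR adjusted p 0.0196). The neurofilament genes *Nefm* and *Nefh* had log2 fold changes of 3.35 and 3.30, and *Stmn2*, a growth cone protein, of 3.23 (adjusted p 0.0427). *Stmn2* was at 1.22 and 3.93 mean TPM, and *Snap25*, a synaptic protein, at 7.11 and 2.91 (-0.20, adjusted p 0.880).

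Of 23 genes of the members' own families 21 were tested, 1 rose and 0 fell. *Ncam2*, the paralog of *Ncam1*, had 3, 6 and 8 counts under AAV-CTRL and 2, 5 and 12 under AAV-VEGF-C (log2 fold change 2.60, edgeR adjusted p 0.0329), and background predicted 71.6% of its counts in AAV-VEGF-C. The most abundant were *Vim*, an intermediate filament gene like *Gfap*, at 242 and 62.9 mean TPM (-0.87, adjusted p 0.0790), and *S100a11*, a relative of *S100b*, at 80.8 and 15.4 (-1.25, adjusted p 0.121). With the replicate number as a block, *S100a11* and *S100a10* were called lower (-1.34 and -1.22, edgeR adjusted p 0.0449 and 0.0341), beside *S100b* (-1.06, 0.0453). Lower calls over all genes were 362 with the block, against 115 in the main fit. *S100a10* was named after its values were seen.

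**Figure D4:**
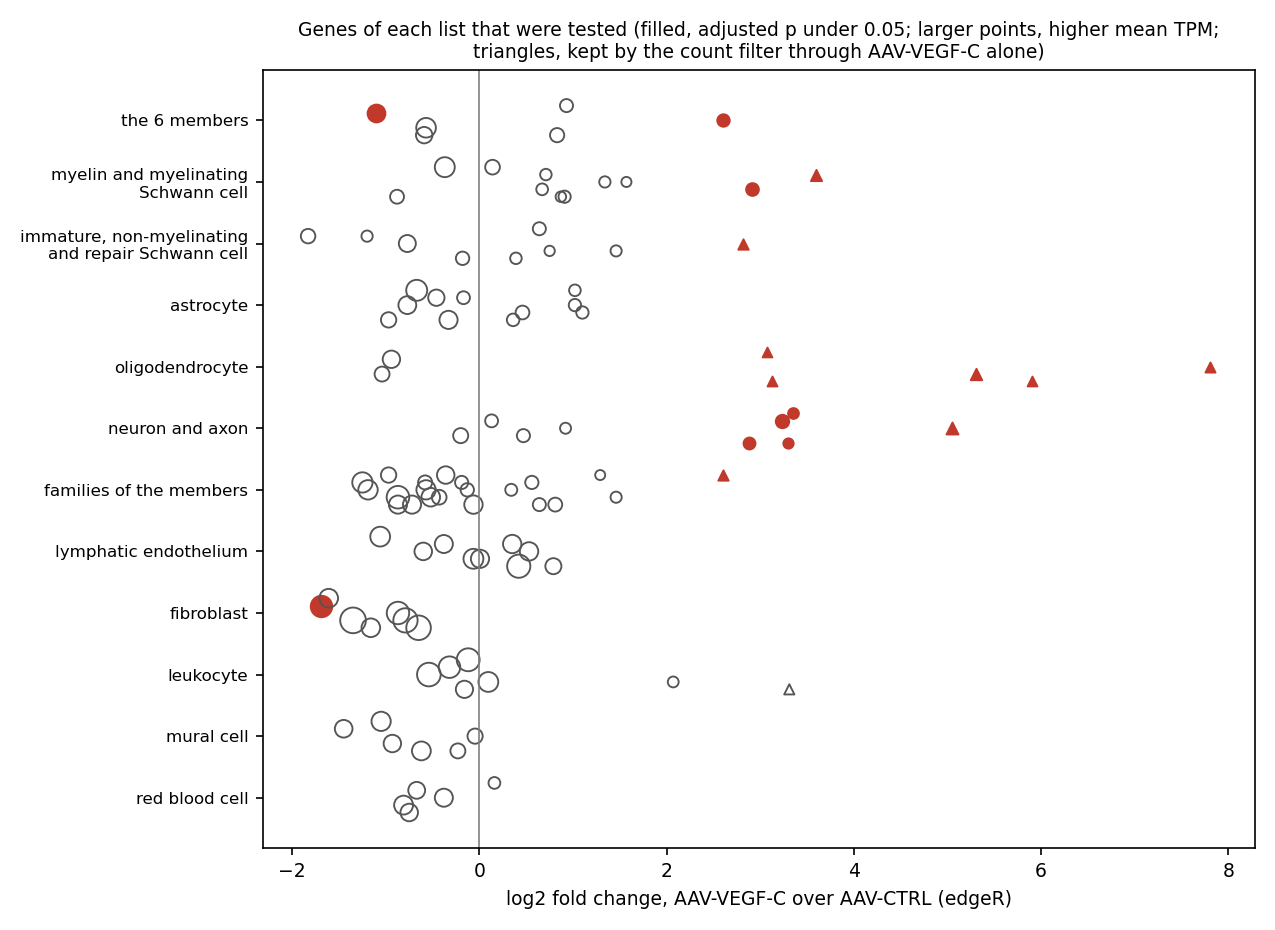
Log2 fold change of AAV-VEGF-C over AAV-CTRL (x axis, edgeR) for every tested gene of each list, with triangles for genes that entered the test through AAV-VEGF-C alone, filled points at an adjusted p under 0.05 and larger points for a higher mean TPM (points spread vertically for legibility). The filled points above 0 are small, that is low in TPM, and the 2 filled points below 0 are S100b among the members and Dcn among the fibroblast genes.

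Markers of other cells were present beside those of LECs. The summed TPM of the 9 lymphatic endothelial genes ran from 484 to 591 under AAV-CTRL and from 156 to 346 under AAV-VEGF-C, led by *Ccl21a* (log2 fold change 0.42, edgeR adjusted p 0.771) and *Mmrn1*. Of the fibroblast genes, *Mgp* and *Col1a1* were at 1416 and 653 mean TPM under AAV-CTRL and 244 and 226 under AAV-VEGF-C. The 7 leukocyte genes summed to 21.4 and 12.5 TPM in the AAV-CTRL and AAV-VEGF-C libraries of experiment 1 and to 417 to 1444 TPM in the other 4 libraries, led by *Lyz2* and *Csf1r*. The 6 mural cell genes, led by *Pdgfrb* and *Acta2*, summed to 79.6 to 260 TPM under AAV-CTRL and 11.9 to 76.6 under AAV-VEGF-C. The 5 red cell genes, led by *Hba-a2* and *Hbb-bs*, summed to 9.21 to 182 TPM under AAV-CTRL and 0 to 84.3 under AAV-VEGF-C. *Sox10* had its lowest TPM of each group in the libraries of experiment 1, whereas in TMM-scaled CPM AAV-VEGF-C 1 was its highest library. In that unit *Sox10* was at 0.963, 2.54 and 4.33 in AAV-CTRL 1, 2 and 3. It was at 23.1, 15.8 and 12.4 in AAV-VEGF-C 1, 2 and 3. Without both libraries of experiment 1 the log2 fold change of *Sox10* was 1.93 and its adjusted p 0.0615 (edgeR).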

How the data were processed

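Bulk RNA-seq of 6 libraries of sorted dural LECs was analysed. For each gene the authors deposited an estimated count without scaling between libraries and a TPM value. Libraries were made with a stranded total RNA kit for low input. The submitters' processing notes name mm10, FastQC, Trimmomatic, DRAGEN and Picard, without versions, and strand use in counting is not given in the sources used here. Of the identifiers, 98.1% match GENCODE M21 (GRCm38) with version, and positions were taken from it.

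Estimated counts were rounded, filtered by filterByExpr, scaled by TMM and tested across all genes with edgeR 4.0.16 (quasi-likelihood, Benjamini-Hochberg, threshold 0.05) in R 4.3.3. DESeq2 1.42.0, which the study used, and limma 3.58.1 on log2(TPM + 1) and log2(TPM + 0.1) were alternatives, with other scalings and filters (a mean TPM of 5), drawn-down counts, the background subtracted and libraries left out. On simulated data edgeR recovered 96.3% of 190 changed genes among 16861 tested, with 3.68% false calls. The planted changes were larger than the main edgeR log2 fold change of any member. The simulated spread was the same for all genes, and background did not differ between the groups. These shares therefore do not measure how well changes of the size seen in the members would be found. For single values two-sided exact permutation tests over the libraries were used. Intervals are 95% Wilson intervals.

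The members and lists were chosen with earlier results of these data known. Genes named from a list were those called, up to 4 with the largest fold change, and the 2 with the highest mean TPM, and the 3 most like each member. Others were named for their function or place after their values were seen. Some genes that these rules name are not reported here.

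Replicate numbers mark the repeats of the experiment in the labels. Libraries with the same number deviated together from the means of their groups. The correlations over genes were 0.398, 0.335 and 0.141 in experiments 1, 2 and 3. The highest other value, 0.229, joined control replicate 3 to treated replicate 2 and exceeded that of experiment 3. These correlations therefore bear out the pairing for experiments 1 and 2 but not for experiment 3. The main edgeR fit left the replicate number out, and the fit with the replicate block included it. Libraries of the same group differed by more than counting noise (lowest chi-square per df 9.74).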

Additional observations from a re-analysis of the deposited data

How the results depend on the processing

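Of 6 members, 1 was called higher and 1 lower. With the replicate block (the paired fit) these calls stayed at 1 and 1, *Sox10* with 2.69 (adjusted p 0.0269) and *S100b* with -1.06 (0.0453), and of the other listed genes 12 in place of 14 were higher and 2 in place of 0 lower. Over all genes, the block gave 2241 higher calls against 1835 and 362 lower calls against 115. *Sox10* was not called with limma on log2 TPM with a pseudocount of 1 or 0.1 (1.16 and 2.12), after subtraction of the background without and with the replicate block (2.72 and 2.85) or without both libraries of experiment 1 (1.93). *S100b* was not called with library size alone (-1.22), TMM on the 2000 most abundant genes (-0.65, where the median of all genes was 0.45), a mean TPM of 5 or more (-0.76), limma on log2(TPM + 0.1) (-2.18), subtraction without and with the block (-0.91 and -0.87), experiment 1 left out (-1.0) or drawn-down counts (-0.85). In these settings 0 members were called in that direction. Over all genes, higher calls numbered 1112 and 1281 with limma and 1882 without experiment 1, against 1835. After subtraction they were 13 without and 562 with the block. Lower calls, against 115, were 53 with library size alone, 8 with TMM on the 2000 most abundant genes and 163 with limma on log2(TPM + 0.1). They were 0 and 22 after subtraction, 110 without experiment 1, and 0 with a mean TPM of 5 or more or drawn-down counts. With a mean TPM of 5 or more or drawn-down counts, *Sox10*, *Mbp* and *Gfap* were not tested and 0 members were called. Without 1 library at a time, 0 to 1 members were called higher and 0 lower, with 2.17 to 3.07 for *Sox10* (called without AAV-CTRL replicate 1) and -1.33 to -0.99 for *S100b*. Limma on log2 TPM with a pseudocount of 1 or 0.1, with medians of all genes of -0.72 and -1.04, gave *Mbp* -0.45 and -0.25 and *Gfap* -0.0047 and -0.056, and drawn-down counts gave *Ncam1* 0.081. In TMM-scaled CPM in place of TPM the ratio of group means was 0.461 for *S100b* (0.229 in TPM), 0.674 for *Ncam1* (0.323) and 0.664 for *Pmp22* (0.381). It was 6.54 for *Sox10* (3.96 in TPM) and 1.85 for *Gfap* (1.09). For *Mbp* the direction differed between the units, at 1.72 in TMM-scaled CPM and 0.549 in TPM. Of the other listed genes, 0 were called higher with a mean TPM of 5 or more, after subtraction or after drawing down, 3 after subtraction with the block, 6 and 5 with limma, 7 without experiment 1 and 0 to 8 without 1 library. Lower calls among them numbered 6 with no filter, 2 with DESeq2, 3 and 2 with limma, 1 without experiment 1 and 0 to 1 without 1 library. Over all genes, higher calls ran from 0 without AAV-CTRL replicate 2 or 3 to 9382 with no filter, against 1835. The cause of these differences was not tested, apart from fewer genes tested after drawing down (7589) and with a mean TPM of 5 or more (7563).

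Low counts in the AAV-VEGF-C libraries limit *Sox10*, *Mbp* and *Gfap* most, with 4 to 22 counts each in AAV-VEGF-C 1 and 2. The p-values measure the spread between 3 pools per group, and depth cannot be told apart from treatment.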

Other observations

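The ratio of estimated counts to TPM, set to annotated exon lengths through genes with 1 transcript, gives the transcript length that the counting assigned to a gene in each library. For *S100b*, which has 1 annotated transcript, it stayed between 1409 and 1560 bases over the 6 libraries. For *Mbp*, with 16 annotated transcripts, it was 4426, 1575 and 1516 bases in AAV-CTRL 1, 2 and 3 and 2714, 3433 and 2397 bases in AAV-VEGF-C 1, 2 and 3. For *Sox10*, with 4 transcripts, it was 3442, 3288 and 3131 bases in AAV-CTRL and 2591, 2456 and 1805 bases in AAV-VEGF-C. The AAV-VEGF-C libraries were all below the AAV-CTRL libraries in this length for 6.99% of the 7642 tested genes with more than 1 transcript and 5 or more counts in every library, and all above them for 16.4%. These lengths rest on 6 to 164 counts, no transcript was measured by itself, and their part in the TPM of either gene was not tested.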
